A study of Homo sapiens with 4 samples.

Results

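The genes described here encode the proteins that shorten, remove, extend and bind the poly(A) tail of mRNA and that degrade the transcript afterwards. They were taken by symbol from a list of 56, all of which were found among the 60671 genes in the count table. The list was drawn up with earlier results of these libraries in view. RNA was sequenced from SK-N-BE(2), a MYCN-amplified cell line derived from a human neuroblastoma, with a control short hairpin RNA (shNC, 2 libraries) or with a hairpin against METTL14 (shMETTL14, 2 libraries). METTL14 partners METTL3 in the enzyme complex that deposits N6-methyladenosine (m6A) in mRNA. Per the study's methods, hairpins were delivered in a lentiviral vector and the cells were selected with puromycin. The methods describe no shNC construct and do not list RNA-seq among the uses of these lines. That both groups share vector and selection is therefore assumed. The model is a single cell line, the labels do not say which METTL14 hairpin the sequenced cells carried, and they do not say whether the 2 libraries of a group came from separate cultures, so the spread between libraries may be technical.

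Most mRNAs lose their poly(A) tail before they are degraded. The PAN2-PAN3 and CCR4-NOT complexes shorten the tail, the cap is then removed by DCP2 and its partners, and the body is degraded from the 5′ end by XRN1 or from the 3′ end by the exosome. Nonsense-mediated decay removes transcripts with a premature stop codon, and poly(A) polymerases, among them the terminal nucleotidyltransferases (TENT), add tails or lengthen them. Reader proteins of m6A recruit the CCR4-NOT complex to methylated transcripts, which is why these genes are of interest where METTL14 is reduced.

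Depth was even, with 18925786 to 19886214 reads counted in genes per library. METTL14 itself had 753 and 754 counts in the shNC libraries and 303 and 321 in the shMETTL14 libraries, so 41.7% of its control level remained. The 9 noradrenergic neuroblastoma markers examined, HAND2 and GATA3 among them, had mean levels of 116 to 3300 TPM in shNC cells. The 10 markers of leukocytes, epithelium, endothelium and muscle reached at most 6.10 TPM. Because RNA was extracted in bulk, a smaller share of cells with a transcript and less transcript per cell cannot be told apart.

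The word GGACT is a form of the sequence in which m6A is most often placed, and METTL14 belongs to the complex that places it. GGACT was present in the longest coding transcript of 51 of the 56 genes (91.1%), against 91.3% of 12771 tested genes with such a transcript in GENCODE 29, so the presence of the word does not set these genes apart. The only members without it were CNOT11, DCP1B, LSM1, EXOSC1 and TENT2. For 6 of the 7 members that changed by at least 1.5-fold, the copy nearest to the stop codon is printed with its flanks, because these are the transcripts on which the results turn. EXOSC4, the other of the 7, held 1 copy that is not shown. Sequences are given 5′ to 3′ on the transcript strand as DNA, with GGACT in capitals. Only this strand was searched, and a match shows only that the letters are present.
TENT5A: actgcctgttGGACTtcttacccga
TENT5C: ttcttgtgcgGGACTtcaggcccac
BTG3: ttttaatattGGACTtgagtattta
PAN2: gcagaaagatGGACTggaaggtgcc
BTG2: cagccagatcGGACTcagccagccc
DCP2: gaacctcatgGGACTtttaaaagaa

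In GRCh38 (GENCODE 29) the TENT5A stretch lies at chr6:81751630-81751654 on the minus strand, in coding sequence, 829 bases from the stop codon. The TENT5C stretch lies at chr1:117623617-117623641 on the plus strand, also coding, 415 bases from the stop codon. In BTG3 the stretch lies at chr21:17593843-17593867 on the minus strand, in the 3′ UTR, and is the only copy of the word in that transcript. The PAN2 stretch, at chr12:56318266-56318290 on the minus strand, is coding and 76 bases from the stop codon, and PAN2 held 13 copies in all, the most of the 6. In BTG2 the stretch lies at chr1:203307207-203307231 on the plus strand and is coding. In DCP2 it lies at chr5:113014895-113014919 on the plus strand, in the 3′ UTR, 1423 bases from the stop codon.

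Expression was compared over the whole table with the edgeR quasi-likelihood test, and a gene was called at a Benjamini-Hochberg adjusted p under 0.05 over 16309 genes tested. All 56 genes could be tested, 55 of them with enough counts in both groups, while TENT5C passed the filter on low counts through the shMETTL14 libraries alone. Calls were made for 34 of the 56 genes, 19 of them higher with shMETTL14 and 15 lower, or 60.7% against 52.5% of all genes tested. With upper quartile scaling the split was 16 higher and 19 lower. With at least 10 counts required in every library, a filter that leaves TENT5C out, it was 18 higher and 16 lower. The background in the reported fit was 27.2% for higher and 25.3% for lower calls. With DESeq2, 25 of the 56 were called, against 36.9% of all genes tested. The shMETTL14 libraries did not overlap the shNC libraries for 46 of the 56 genes (82.1%), against 75.5% of all genes tested. Since the list was drawn up with this contrast known, calls on its members describe these libraries, no p-value is given for them, and nothing is read from the shares.

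Changes were mostly small. The median absolute log2 fold change was 0.18 over the 56 genes and 0.30 over all genes tested, and the medians with sign were 0.01 and -0.00095. A call with a change of at least 1.5-fold was made for 7 of the 56 genes (12.5%), against 18.8% of all genes tested. Higher by at least 1.5-fold were TENT5C, TENT5A, EXOSC4 and BTG3, where the background was 7.44%. TENT5C is among them only because its shMETTL14 counts carried it past the filter. Lower by at least 1.5-fold were PAN2, BTG2 and DCP2, where the background was 11.4%. PAN2 at -0.69 was the lowest log2 fold change of the list, so no member fell as far as 2-fold. DCP2 (-0.60) lay just inside the 1.5-fold limit, and LSM1 (0.56) and EXOSC1 (0.56) just outside it.

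**Figure D1:**
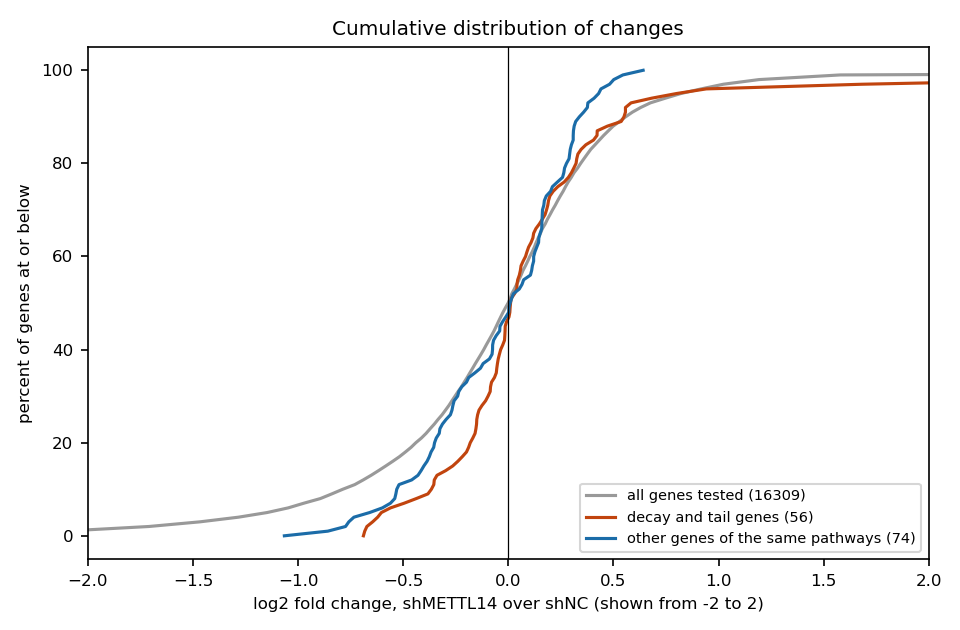
Cumulative distribution of log2 fold changes (shMETTL14 over shNC, x axis shown from -2 to 2) for all 16309 genes tested, the 56 decay and tail genes and 74 tested genes of the same pathways, with the percent of genes at or below each value on the y axis. The curves cross near 0, and the curve of the 56 genes ends at -0.69 on the left while that of all genes goes on beyond -2.

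**Figure D2:**
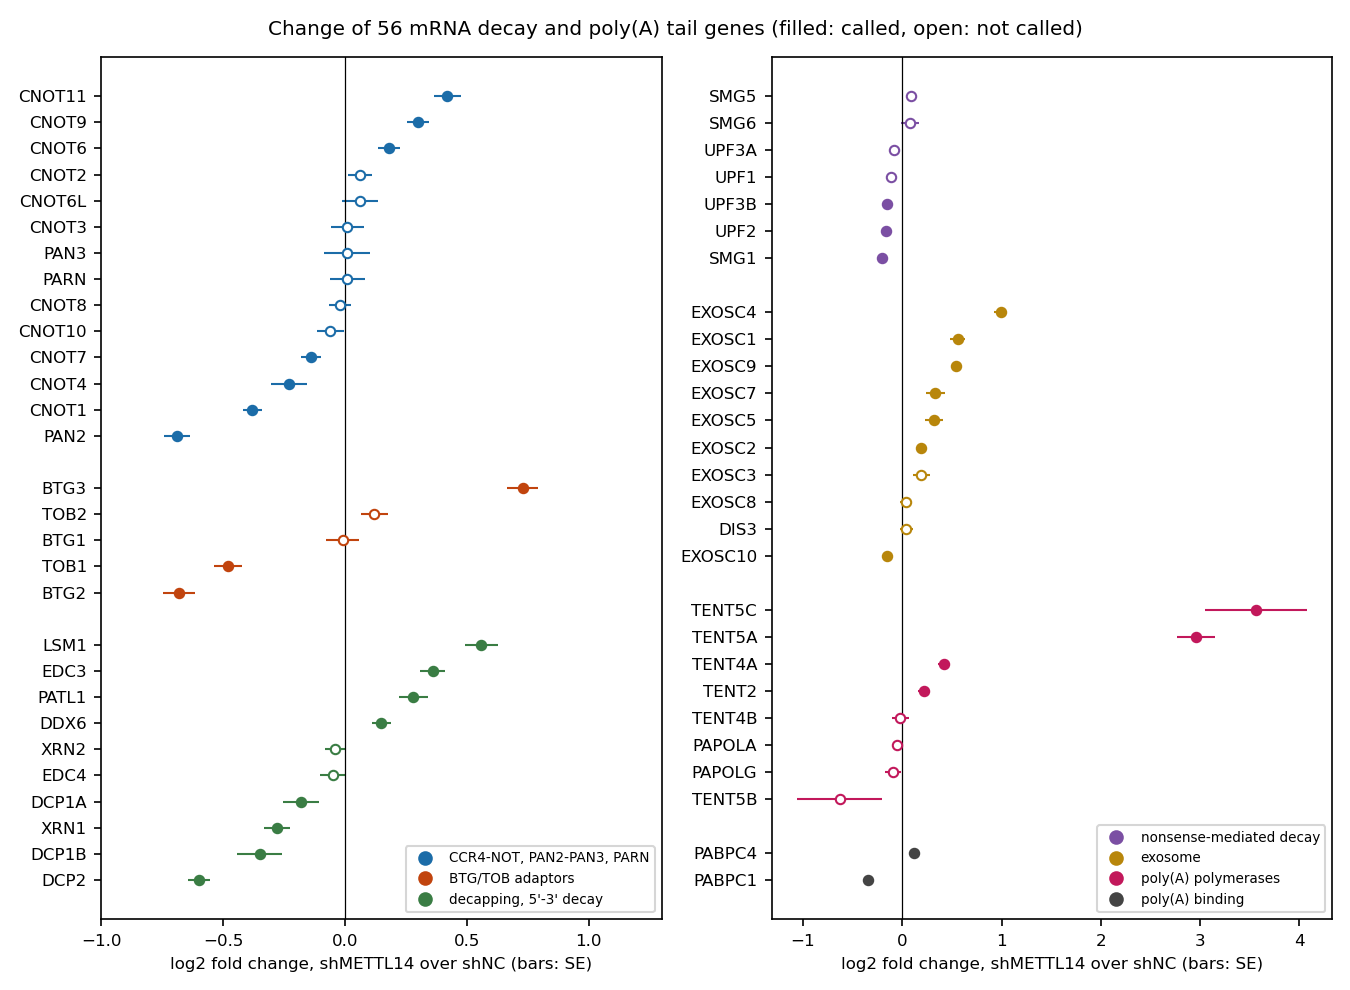
Log2 fold change (shMETTL14 over shNC, x axis, bars are SE from the fit on 2 libraries per group) of each of the 56 genes, grouped by role, with filled points for called genes and open points for genes not called. The x scales of the panels differ, because TENT5A (2.96) and TENT5C lie far to the right of every other gene.

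The poly(A) polymerases held the 2 largest changes of the list, both in the TENT5 family of non-canonical poly(A) polymerases, which extend tails in the cytoplasm. TENT5A (ENSG00000112773, chromosome 6, 81491439 to 81752774, minus strand) had 32 and 28 counts with shNC, and with shMETTL14 it had 262 and 204. The groups were far apart, although the shMETTL14 libraries also differed from each other. Its mean rose from 1.53 ± 0.101 CPM to 12.0 ± 1.97 CPM (SD, n = 2 each), a log2 fold change of 2.96 (SE 0.192). TENT5C (ENSG00000183508, chromosome 1, 117605934 to 117628372, plus strand) had 2 and 4 counts in the shNC libraries, near the floor of 3 counts, against 40 and 33. TENT5C passed the filter on low counts through the shMETTL14 libraries alone, so a rise was built into its being tested. Its summed counts were 12.2-fold higher after scaling (exact 95% interval 5.36 to 34.5, for counting error only). The interval describes these counts and is not support for the rise. TENT5C stayed a weakly expressed gene, at 1.88 ± 0.232 CPM in shMETTL14 cells.

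The family did not move as a block. TENT5B had 18 and 21 counts in the shNC libraries and 13 and 12 in the shMETTL14 libraries, a log2 fold change of -0.63 (SE 0.428) that was not called. The libraries did not overlap, but the ratio of summed counts, 0.645, had an interval from 0.374 to 1.09. TENT5D had no count in any library. In shNC cells, levels per exon length were 1.39 ± 0.180 TPM for TENT5B, 0.832 ± 0.0607 for TENT5A and 0.0881 ± 0.0432 for TENT5C (SD, n = 2), the lowest 3 levels of the list. In shMETTL14 cells TENT5A was the highest of the 3.

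The other polymerases were expressed more strongly and changed less. TENT4A, which adds mixed tails to mRNA, had 886 and 858 counts in shNC libraries and 1127 and 1196 in shMETTL14 libraries, and rose with a log2 fold change of 0.42 (SE 0.0613). Its paralog TENT4B, which tags nuclear RNAs for trimming and decay, was at -0.02 (SE 0.0876), with 593 counts in 1 shMETTL14 library and 488 in the other, so the groups overlapped. TENT2, the cytoplasmic polymerase also called GLD2, rose by 0.22 on the log2 scale, a call not made by DESeq2 or without shMETTL14 library 1. The canonical nuclear polymerases PAPOLA (-0.05) and PAPOLG (-0.09) were not called, although upper quartile scaling and library size alone made PAPOLA a lower call (-0.122 and -0.099). PAPOLA was 7.47 times as abundant per length as PAPOLG in shNC cells.

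**Figure D3:**
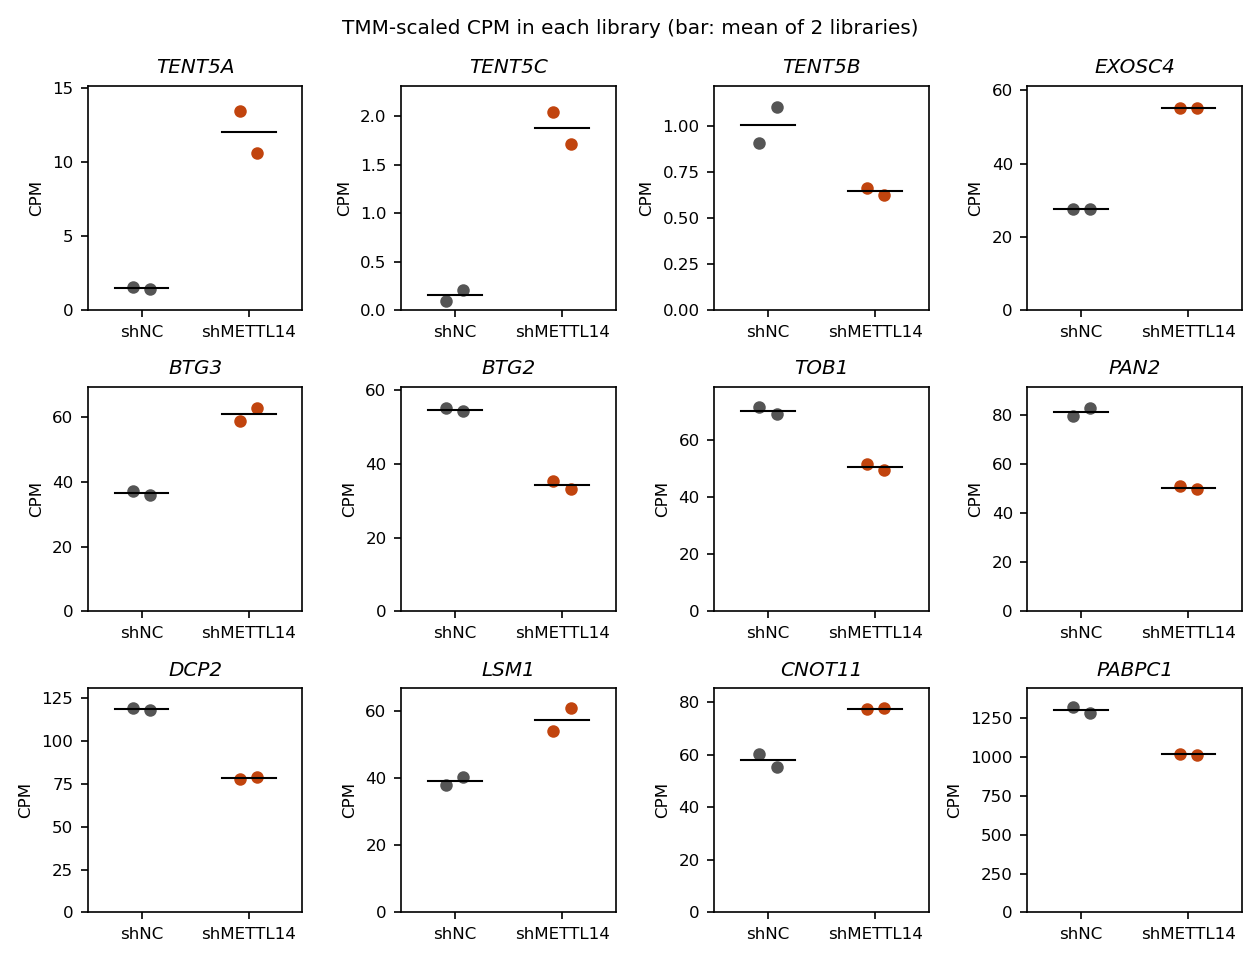
TMM-scaled CPM (y axis, each from 0) in each of the 4 libraries for 12 of the genes, with a bar at the mean of the 2 libraries of a group. The 12 genes were picked from the list, and TENT5B among them was not called. In each panel both shMETTL14 points lie on 1 side of both shNC points, as for 75.5% of all genes tested. The gap is widest in relative terms for TENT5C and TENT5A.

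The deadenylases and their partners were mixed in direction. Of 14 genes, 7 were called (50.0%, against 52.5% of all genes tested), 3 higher and 4 lower, with a median log2 fold change of 0.01. PAN2 (ENSG00000135473), the catalytic subunit of PAN2-PAN3, had 1588 counts in each shNC library and 1001 and 956 in the shMETTL14 libraries. The libraries of a group lay close together, and 62.0% of the control level remained (log2 fold change -0.69, SE 0.0540). Its partner PAN3, which anchors PAN2 to the tail, was at 0.01 with overlapping groups, so the subunits of this complex were not changed alike. Exons of PAN2 overlap those of CNPY2 on the same strand, and how the reads were divided was not tested. The separate deadenylase PARN was also at 0.01 and was not called.

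Within CCR4-NOT, subunits were called in both directions. CNOT1, the scaffold on which the other subunits assemble, fell from 9090 and 8474 counts to 6755 and 6672 (log2 fold change -0.38, SE 0.0383). Per length of all its annotated exons it was the most abundant subunit, at 136 ± 3.84 TPM (SD, n = 2) in shNC cells. CNOT11, which binds the scaffold together with CNOT10, had 1206 and 1061 counts in shNC cells and 1514 and 1501 in shMETTL14 cells, and rose by 0.42 on the log2 scale (SE 0.0551). CNOT10 was at -0.06 and not called. CNOT9, the subunit that docks recruiting proteins, rose by 0.30 on the log2 scale (2581 and 2617 counts against 3233 and 3140). CNOT2 (0.06) and CNOT3 (0.01), which pair with each other in the complex, were not called and overlapped between groups.

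The catalytic subunits changed little. Of the CCR4-type nucleases, CNOT6 rose by 0.18 and CNOT6L was at 0.06, not called, and CNOT6 was 5.30 times as abundant per length in shNC cells. Of the CAF1-type nucleases, CNOT7 had a log2 fold change of -0.14, a call lost without shMETTL14 library 1 (-0.101), and CNOT8 was at -0.02, not called. Exons of CNOT7 overlap those of VPS37A on the other strand, and those of CNOT8 overlap FAXDC2. CNOT4, an E3 ubiquitin ligase of the NOT family, had 938 and 939 counts in shNC libraries and 862 and 727 in shMETTL14 libraries, at -0.23. That call rested on the second shMETTL14 library, since without it the value was -0.117 and not called, and it was also lost without shNC library 2 (-0.197) and with DESeq2 (-0.236).

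The BTG and TOB proteins bind the CAF1 nucleases, TOB proteins also bind the poly(A) binding protein, and both restrain proliferation. Of the 5 genes, 3 were called (60.0%, against 52.5% of all genes tested). BTG3 (ENSG00000154640) rose from 743 and 685 counts to 1151 and 1209, which was 166% of the control level (log2 fold change 0.73, SE 0.0639). Its exons overlap those of the antisense gene BTG3-AS1. BTG2 (ENSG00000159388), an immediate early gene and p53 target, fell from 1102 and 1040 counts to 692 and 638, to 62.5% of the control level (-0.68, SE 0.0655). TOB1 fell from 1429 and 1321 counts to 1009 and 952 (-0.48, SE 0.0561). Each of these 3 gaps exceeded the spread within groups. The libraries did not overlap for 4 of the 5 genes (80.0%, against 75.5% of all genes tested).

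Close relatives differed here. BTG1 was at -0.01 with overlapping groups, 0.66 above BTG2 on the log2 scale. TOB2 was at 0.12 and not called, and TOB1 lay 0.59 below it. In shNC cells TOB1 was 2.18 times as abundant per length as TOB2, and BTG1 was at 33.0 TPM where BTG2 was at 65.3 TPM.

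In decapping and 5′ to 3′ decay, 8 of 10 genes were called (80.0%, against 52.5% of all genes tested), 4 higher and 4 lower. The 3 DCP genes were all called lower, where the background for lower calls was 25.3%. This subset was also set apart after the values were seen. DCP2 (ENSG00000172795), the enzyme that cleaves the cap, fell from 2365 and 2260 counts to 1523 and 1517, to 66.2% of the control level (log2 fold change -0.60, SE 0.0460). Of its activators, DCP1B was at -0.35 and DCP1A at -0.18. The DCP1A call did not hold with DESeq2, without a filter or in 3 of the 4 fits that left out 1 library (without shNC library 2, -0.111; without either shMETTL14 library, -0.165 and -0.185). XRN1, the cytoplasmic exonuclease that follows decapping, fell from 1404 counts in each shNC library to 1156 and 1149 (-0.28, SE 0.0533). XRN2, its nuclear counterpart, stood at 209 TPM in shNC cells where XRN1 stood at 19.7 TPM. XRN2 was not called at -0.04, though upper quartile scaling made it a lower call (-0.104).

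The 4 higher calls were in LSM1, EDC3, PATL1 and DDX6. LSM1, the subunit that makes the LSM1 to LSM7 ring cytoplasmic, rose from 755 and 769 counts to 1059 and 1169, which was 147% of the control level (0.56, SE 0.0680). Its exons overlap those of BAG4 on the other strand. EDC3, an enhancer of decapping, rose by 0.36 (1295 and 1280 counts against 1619 and 1655), and PATL1, which joins the LSM ring to the decapping enzyme, rose by 0.28. DDX6, a helicase of the repressed state, rose by 0.15, a call not made under upper quartile scaling. EDC4, the scaffold of the decapping complex, was at -0.05 with overlapping groups.

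Nonsense-mediated decay genes stayed within a narrow range, from -0.20 to 0.09 on the log2 scale. None of the 7 was called higher and 3 were called lower, SMG1 (-0.20), UPF2 (-0.16) and UPF3B (-0.15), and none reached 1.5-fold. The share called was 42.9%, against 52.5% of all genes tested. SMG1, the kinase that phosphorylates UPF1, had 3534 and 3256 counts in shNC libraries and 2986 and 2903 in shMETTL14 libraries. Reads of SMG1 may be shared with 7 annotated copies named as its pseudogenes. UPF1, the helicase at the centre of the pathway, was at -0.11 (1871 and 1795 counts against 1647 and 1735) and was not called, and UPF3A was at -0.08. The endonuclease SMG6 (0.08) and SMG5 (0.09), which binds phosphorylated UPF1, were not called. The count of 3 was unstable, at 5 with upper quartile scaling or library size alone (UPF1 and UPF3A added), 1 with DESeq2, and 1 without shNC library 1 or without shMETTL14 library 2.

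The exosome is a barrel of non-catalytic cap and ring subunits to which the nucleases DIS3 and EXOSC10 attach. Its median log2 fold change, 0.26, was the highest among the groups. Of the 8 cap and ring genes on the list, 6 were called higher and 0 lower (2 were not called), while the background for higher calls was 27.2%. This subset was set apart after the values were seen. EXOSC4 (ENSG00000178896, chromosome 8, 144078626 to 144080647, plus strand) rose from 551 and 531 counts to 1081 and 1060. The libraries of each group were nearly equal, at 27.7 ± 0.0606 CPM and 55.1 ± 0.0937 CPM (SD, n = 2 each), a log2 fold change of 0.99 (SE 0.0672). EXOSC1, a cap subunit, rose from 506 and 515 counts to 747 and 746 (0.56, SE 0.0754). EXOSC9, a ring subunit, rose from 1376 and 1457 counts to 2125 and 1979 (0.54, SE 0.0530), and its exons overlap those of CCNA2 on the other strand.

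The smaller exosome increases were less firm. EXOSC7 (0.33), EXOSC5 (0.32) and EXOSC2 (0.19) were called higher, but not with DESeq2, which called 4 exosome genes in place of 7. The EXOSC5 call was also lost without shMETTL14 library 2 (0.213), and that of EXOSC2 without shMETTL14 library 1 (0.155) or with upper quartile scaling (0.126). EXOSC3 (0.19) and EXOSC8 (0.04) were not called. Of the nucleases, EXOSC10 fell from 2617 and 2601 counts to 2345 and 2323 (-0.15, SE 0.0439), a call lost without shNC library 2 (-0.122) or shMETTL14 library 1 (-0.142). DIS3 was at 0.04, with overlapping groups. Outside the list, further genes were picked after the values were seen. The ring subunit EXOSC6 was called higher (0.35, SE 0.0558) and the nuclease DIS3L was called lower (-0.52, SE 0.0746). The related DIS3L2 went the other way from DIS3L, called higher (0.26, SE 0.0813) but not by DESeq2.

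The cytoplasmic poly(A) binding proteins moved apart. PABPC1, which coats the tail, was the most abundant transcript of the list at 899 ± 24.8 TPM (SD, n = 2) in shNC cells. It fell from 26296 and 24536 counts to 20069 and 19525, to 78.4% of the control level (-0.35, SE 0.0357). Reads of PABPC1 may be shared with 13 annotated copies named as its pseudogenes. PABPC4 had 5232 and 4799 counts in shNC libraries and 5384 and 5457 in shMETTL14 libraries. It was called higher at 0.12, but not with DESeq2, upper quartile scaling or library size alone, nor without shNC library 2 (0.094) or shMETTL14 library 2 (0.109). PABPC1 was 7.25 times as abundant per length as PABPC4.

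**Figure D4:**
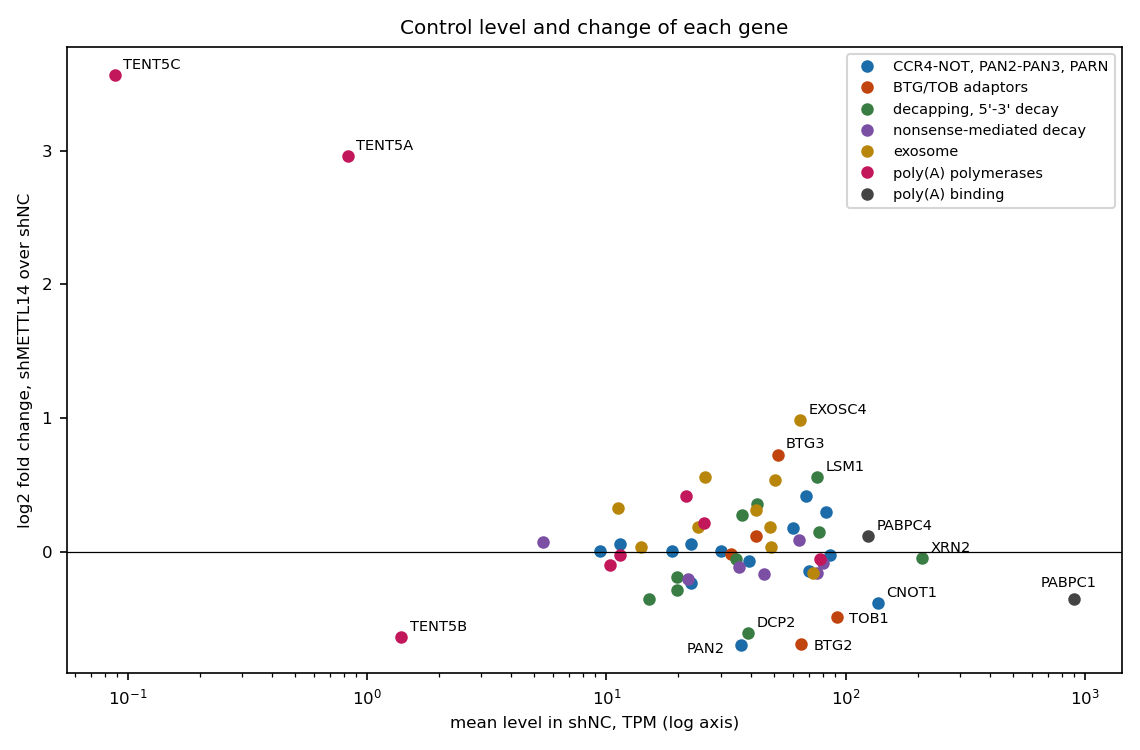
Mean level in shNC cells (TPM, log x axis) against log2 fold change (shMETTL14 over shNC, y axis) for each of the 56 genes, coloured by role. The 2 large increases come from genes under 1 TPM, and the genes between 5.43 and 899 TPM all lie between -0.69 and 0.99.

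The Spearman correlation of log2 fold change with coding length was -0.38 over the 56 genes, also without TENT5A and TENT5C, and -0.15 over 12771 tested genes with an annotated coding sequence. The points share the same 4 libraries, and the genes are not independent. The 19 genes called higher had a median coding length of 1371 bases and the 15 called lower 1911 bases, against 1254 and 1656 bases among all genes called higher and lower. The 22 genes not called had the longest median coding length, 2154 bases, so these medians are not in order from higher to lower. Among all genes not called it was 1479 bases, between those of the higher and lower calls. Median transcript lengths of the members were in order, at 2599 bases called higher, 4190 not called and 5372 called lower. Over all 12771 genes they were 2827, 3044 and 3834 bases. By median coding length the exosome group, at 853.5 bases, was the shortest and the nonsense-mediated decay group, at 3390 bases, the longest. With transcript length the correlation was -0.31 over the 56 genes, -0.4 without TENT5A and TENT5C, and -0.14 over the 12771 genes. Whether length plays a part in these changes was not tested. TATTTAT, an AU-rich word found in unstable mRNAs, occurred in the 3′ UTR of 23 of the 56 genes (41.1%) on the transcript strand, against 31.2% of tested genes, and was present in 6 of the 19 called higher, 6 of the 15 called lower and 11 of the 22 not called.

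A further 79 genes of the same pathways, none of them on the list, were compared in the same fit. Of these, 74 could be tested and 43 were called (58.1%, against 52.5% of all genes tested), 21 higher and 22 lower, with a median log2 fold change of 0.01. TENT5D, PAPOLB, PABPC5, PABPN1L and BTG4 were too weakly expressed. The largest decreases among called genes were in PAIP2B, an inhibitor of poly(A) binding protein (-1.07, edgeR adjusted p 3.2e-07), and HBS1L, which rescues stalled ribosomes with PELO (-0.78, adjusted p 3e-10). PNRC2, which links decapping to nonsense-mediated decay, was at -0.73 (adjusted p 1.6e-11). LSM14B (-0.62) and ZFC3H1 (-0.56) completed the lowest 5 among called genes, and PATL2 (-0.77, SE 0.427) was not called. The largest increases among called genes were in MAGOH (0.64, adjusted p 7.1e-10), LSM3 (0.51, adjusted p 2.3e-08), PDE12, NOCT and CPEB2 (0.49, 0.44 and 0.43), of which NOCT and CPEB2 were not called by DESeq2.

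Several of these genes complete complexes described above. The comparisons in the rest of this paragraph were picked after the values were seen. Of the LSM ring, LSM3 (0.51), LSM6 (0.31), LSM7 (0.30) and LSM5 (0.21) were called higher along with LSM1, whereas LSM2 (0.13) and LSM4 (-0.08) were not called. That was 5 of 7 ring genes, where the background for higher calls was 27.2%. The exon junction complex is left on spliced mRNA and takes part in nonsense-mediated decay. Of its genes, MAGOH (0.64) and its paralog MAGOHB (0.29), EIF4A3 (0.32) and RBM8A (0.26) were called higher, whereas CASC3 was called lower (-0.14). With the further nonsense-mediated decay genes, 7 of 10 were called (70.0%, against 52.5% of all genes tested), 4 higher and 3 lower. The other lower calls were NBAS (-0.35) and SMG9 (-0.30). Of the exosome cofactors, the helicase MTREX (-0.26) and its partners ZCCHC8 (-0.40) and ZFC3H1 (-0.56) were called lower, whereas RBM7 (0.12) was not called. In the whole group of 15 genes, 12 were called (80.0%, against 52.5% of all genes tested), 5 higher and 7 lower. The uridylyltransferases TUT4 (-0.33) and TUT7 (-0.35), which tag transcripts with short tails, were both called lower, as was PUM2 (-0.27), which recruits CCR4-NOT to mRNAs. ZFP36L1 (-0.42) and ZFP36L2 (0.38), which bind AU-rich elements, were called in opposite directions.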

How the data were processed

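The authors deposited raw read counts per Ensembl gene ID for 4 libraries. The submitters' processing notes name HISAT2 2.1.0, StringTie 1.3.6, HTSeq 0.13.5 and edgeR, with GRCh38. Annotation release and strand setting are not given in the sources used here, so reads of overlapping genes may be lost or misassigned. Exons of 15 of the 56 genes overlap those of another coding gene. These are CNOT1, CNOT3, CNOT7, CNOT8, CNOT11, PAN2, EDC3, LSM1, SMG6, EXOSC3, EXOSC5, EXOSC7, EXOSC8, EXOSC9 and DIS3. The 5 lines naming no gene held 19.1% to 19.9% of counts per library and were left out. Symbols were matched through a gene name table, and coordinates are from GENCODE 29.

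Counts were tested with edgeR 4.0.16 in R 4.3.3 (quasi-likelihood F-test, TMM, filterByExpr with a minimum count of 10 and total of 15, group as the only term), adjusted over 16309 genes. DESeq2 1.42.0, 3 other scalings, 2 other filters, the replicate number as a block and leaving out each library were alternatives. The procedure was also run on simulated counts. Far fewer genes were changed there than were called here, so that run does not give the error rate in these data. CPM is TMM-scaled. TPM here is counts per base of all exons annotated to a gene in GENCODE 29, scaled to the same total in each library. Rankings and ratios per length depend on that choice of length. Standard errors derive from the F statistic. A permutation test of 2 against 2 libraries cannot go below a two-sided exact p of 0.333, so calls rest on the variance shared across genes. Leaving out a library leaves 1 sample in a group, assumed to vary like the other group. Genes, lists and groups were chosen with earlier results of these data known. Any of the 56 genes could be named, with every count for the largest called changes of each group and both values for paralogs, and of the 79 further genes the 5 largest called changes each way.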

Additional observations from a re-analysis of the deposited data

How the results depend on the processing

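The 34 called members became 25 to 36 and the 7 of at least 1.5-fold became 6 or 7 under the alternatives with 4 libraries, and 28 to 32 and 7 to 10 with 1 library left out. METTL14 stayed lower (-1.33 to -1.25 with 4 libraries, -1.309 to -1.205 with 1 left out). The median of the members, 0.011, moved to -0.057 with upper quartile scaling and -0.035 with library size alone, where the median over all genes shifted by -0.068 and -0.045, and was 0.011 to 0.059 with 1 library left out. The 3 calls in nonsense-mediated decay became 5 with upper quartile scaling or library size alone, 1 with DESeq2 and 1 to 3 with 1 library left out. The 2 poly(A) binding calls became 1 with upper quartile scaling, library size alone or DESeq2, and 1 to 2 with 1 library left out, and the 7 exosome calls became 4 with DESeq2. For DESeq2 the cause was not tested. Called pathway genes numbered 32 to 47 against 43.

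The sign changed for 10 genes, but 0 of them were called in the reported fit and 0 of the reversed values had an adjusted p under 0.05. With upper quartile scaling these were CNOT2 (-0.012), CNOT3 (-0.055), CNOT6L (-0.006), PAN3 (-0.061), PARN (-0.059), EXOSC8 (-0.027) and DIS3 (-0.027). With library size alone they were CNOT3 (-0.033), PAN3 (-0.039), PARN (-0.036), EXOSC8 (-0.004) and DIS3 (-0.004), and under the filter of 10 counts per library CNOT3 (-0.006), PAN3 (-0.012) and PARN (-0.010). With 1 library left out, the values ran from -0.051 to 0.020 for CNOT8, -0.061 to 0.079 for PAN3, -0.073 to 0.094 for PARN, -0.085 to 0.061 for BTG1, -0.021 to 0.113 for EXOSC8, -0.019 to 0.110 for DIS3 and -0.149 to 0.112 for TENT4B. Of the other values of single genes, 15 with 4 libraries and 18 with 1 left out lost their call, and 8 and 1 gained it. Under that filter TENT5C could not be tested.

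The labels do not say whether same-numbered libraries were handled together. Their deviations had a Pearson correlation of -0.0018 (over genes), which cannot decide this with 2 libraries per group. A fit with replicate block called 34 of the 56 genes, 19 higher and 15 lower. At this depth TENT5B and TENT5C were limited by counting error.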
